A study of Mus musculus with 9 samples.

Results

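The response of cultured mouse cells to tumour necrosis factor alpha (TNF) for 24 h was compared with untreated cells in 6 of the 9 RNA-seq libraries of the series, 3 in each group. The libraries are labelled RAW264.7, a macrophage-like cell line from BALB/c mice. The TNF group received TNF-α for 24 h, the untreated group received no agent and has no time given, and the other 3 libraries received TNF-α together with Wang Bi granules (WBG, a herbal preparation) for 24 h. The series asks how Wang Bi granules act in a setting that models rheumatoid arthritis, and the comparison described here is its induced against its blank cells. Gene levels were taken as the deposited FPKM (fragments per kilobase of gene model, scaled to the number of fragments in the library), a scale that allows for gene length. Of 56289 genes in the table, 13026 had at least 1 FPKM in at least 3 of the 9 libraries and were kept. The labels do not say whether replicates were separate cultures, so the p-values cover the spread among these libraries alone, which may be technical. Time in culture and TNF cannot be told apart, since the untreated libraries carry no time.

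The labelled cell type was checked against marker genes before the comparison. Of 20 macrophage markers, 3 (Mertk, Cd68 and Cd14) averaged 1 FPKM or more in these 6 libraries, and 6 (Spi1, Adgre1, Ptprc, Tyrobp, Itgam and Ctss) were listed at 0 in all of them. The summed level of the macrophage markers was 8.93 to 9.61 FPKM in untreated and 8.71 to 10.1 FPKM in TNF libraries. Of 16 fibroblast markers, 12 reached a mean of 1 FPKM, with sums of 4115 to 4394 FPKM in untreated and 4505 to 4723 FPKM in TNF libraries. S100a4, Col1a1, Fn1 and Col3a1 had the highest values of that list. Lum was listed at 0, Thy1, Fap and Loxl1 averaged under 1 FPKM, and Dcn was at 2.75 to 3.21 FPKM in untreated libraries. These markers were not taken to name the cells. Of 10 osteoclast markers, 2 (Mmp9 and Itgb3) averaged 1 FPKM or more, Mmp9 through the TNF libraries alone, and the sums were 2.55 to 3.15 FPKM in untreated and 6.70 to 7.01 FPKM in TNF libraries. Acp5 and Atp6v0d2 of that list were listed at 0. No marker averaged 1 FPKM among 10 of neutrophils and mast cells, 10 of lymphocytes and 10 of epithelium and endothelium. The data therefore go against the label, and the cells are called the cultured cells here. In bulk RNA, fewer cells of a type and less RNA per cell cannot be told apart, and the part that a shift in cell makeup has in the differences was not tested. Depth was inferred from the steps in low values of single-exon genes as 18.9 to 26 M (mega) fragments per library, if a step is 1 fragment. The search ran only from 15.2 to 30.3 M, because smaller steps occur too. Between 32.4 and 35.8% of these values lay within 0.02 of a whole step, against 4% for an even spread, so most lay off the steps and the depth is approximate.

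TNF is a cytokine released mainly by macrophages and T cells. It binds the receptors TNFR1 (Tnfrsf1a) and TNFR2 (Tnfrsf1b), which recruit TRAF adaptors and activate I kappa B kinase. I kappa B proteins are then degraded, and Rel family dimers (NF-kappa B) enter the nucleus and bind kappa B sites in promoters and enhancers. Known targets include chemokines, leukocyte adhesion molecules, proteases and the feedback inhibitors of the pathway itself. JNK and p38 kinases, which act on AP-1 factors such as Jun, Fos and Atf3, are also switched on early after TNF.

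In the cultured cells 1386 of the 13026 genes were called, which is 10.6%, at a limma adjusted p under 0.05 over all genes kept. Of these, 837 genes rose (6.43% of the genes kept) and 549 fell (4.21%). At an unadjusted p under 0.05 there were 3121 genes. The median change on the log2(FPKM + 1) scale was 0.39 among the rises and -0.36 among the falls, so most called genes changed by less than 2-fold. A change of at least 2-fold on that scale was seen for 86 rises and 38 falls, and one of at least 4-fold for 13 rises and 1 fall. The 3 TNF libraries lay wholly above or wholly below the 3 untreated libraries for all 1386 called genes, and for 3902 (30.0%) of all genes kept. The untreated mean was under 1 FPKM for 64 of the rises, and the TNF mean was under 1 FPKM for 21 of the falls. Leaving out single libraries in turn gave 559 to 782 rises, the fewest without TNF replicate 3, and 346 to 514 falls. The falls numbered 346 without untreated replicate 3, 357 without TNF replicate 2 and 360 without TNF replicate 3. A sorting by symbol put 512 of the called genes into 64 functional classes, and 874 called genes are in no class. The classes were chosen with earlier results of these data known, and a few symbol patterns were corrected once.

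Of the 12 largest rises, 5 held a match to the kappa B consensus in the promoter window, from 250 bases before to 50 bases after the gene start (RefSeq, GRCm38.p6). These sequences are shown because they belong to the genes with the largest responses. Each is printed 5′ to 3′ on the strand of the gene, with the kappa B match in capitals.
Ubd, chr17:37193857-37193891 (+): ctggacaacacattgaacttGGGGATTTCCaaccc
Serpina3g, chr12:104236042-104236091 (+): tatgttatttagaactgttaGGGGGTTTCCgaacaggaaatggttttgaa
Cxcl10, chr5:92349019-92349068 (-): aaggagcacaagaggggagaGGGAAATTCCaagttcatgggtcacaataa
Cxcl10, chr5:92348964-92349013 (-): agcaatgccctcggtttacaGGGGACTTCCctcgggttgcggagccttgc
Nfkbie, chr17:45555574-45555623 (+): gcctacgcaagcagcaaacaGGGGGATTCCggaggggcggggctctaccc
Cxcl1, chr5:90891154-90891203 (+): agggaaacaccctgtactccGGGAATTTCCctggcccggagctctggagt
The capitals begin 15 bases before the gene start in Ubd, 85 in Serpina3g, 159 and 104 in Cxcl10, 106 in Nfkbie and 71 in Cxcl1. The second Cxcl10 site held a further match 1 base on, on both strands, and the Cxcl1 site held one 1 base on, on the opposite strand. Of the 12 largest rises 8 had a window in the table, and of the 12 largest falls 8 had one and 0 held the consensus.

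Over all genes kept with a window (9250), the kappa B consensus was found in 10.1%. It was found in 106 of 612 windows of genes that rose (17.3%), in 29 of 61 windows of genes that rose at least 2-fold (47.5%), and in 44 of 414 windows of genes that fell (10.6%). The core of the interferon-stimulated response element, read as GAAA, any 2 bases and GAAA again on either strand, was found in 2.93% of windows of genes kept, 6.86% of those that rose, 11.5% of those that rose at least 2-fold and 2.42% of those that fell. An AP-1 site, TGANTCA on either strand, was found in 4.49%, 6.86%, 9.84% and 5.80% of the same sets. Of the 26 windows of genes that fell at least 2-fold, 1 (3.85%) held the kappa B consensus and 1 (3.85%) the GAAA core. The AP-1 site was in 4 of these 26 (15.4%), a higher share than among genes that rose at least 2-fold. Over all 27025 windows of the table the shares were 8.19%, 3.49% and 7.92%. A match describes letters in a window and was not tested as a binding site.

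**Figure D1:**
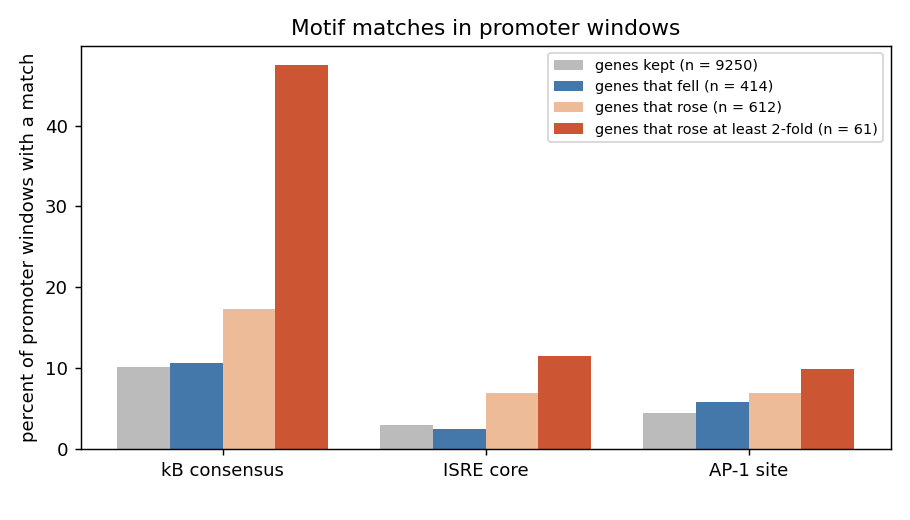
Share of promoter windows (percent, 250 bases before to 50 after the gene start) holding the kappa B consensus, the ISRE core or the AP-1 site, for all genes kept, genes that fell, genes that rose and genes that rose at least 2-fold. The kappa B share is 10.1% for genes kept and 47.5% for genes that rose at least 2-fold. Genes that fell at least 2-fold are not drawn.

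The largest rise was that of C3, the central complement protein. Its level was 8.68, 9.52 and 8.11 FPKM in untreated replicates 1 to 3 and 164, 174 and 161 FPKM in TNF replicates 1 to 3. That is 19-fold in mean FPKM and 4.10 ± 0.06 on the log2 scale (± standard error, limma adjusted p = 4.3e-09). Ubd, a ubiquitin-like modifier also known as FAT10, was at 0.70, 0.547 and 1.27 FPKM untreated and at 16.6, 15 and 15.5 FPKM with TNF. Ccl2, the chemokine that attracts monocytes, was already expressed, at 38.1, 32.7 and 37.1 FPKM untreated, and reached 265, 262 and 269 FPKM. Groups that do not overlap were a condition of the choice of the largest rises and falls, and the gap was wide for these genes. Cd74, which chaperones MHC class II molecules, was at 0.982, 1.06 and 1.26 FPKM untreated and at 14.4, 15.7 and 15 FPKM with TNF. Serpina3g, a protease inhibitor, went from 0.604, 0.518 and 0.0589 to 7.69, 8.36 and 8.5 FPKM. Untreated levels of the latter lay under 1 FPKM.

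The chemokines Cxcl10, Ccl5 and Cxcl1 were near or under 1 FPKM in untreated libraries. Cxcl10, a T cell attractant, was at 0.506, 0.366 and 0.133 FPKM untreated and at 6.6, 7.52 and 5.99 FPKM with TNF. Ccl5 was at 0.503, 0.698 and 0 FPKM untreated and 7.01, 6.19 and 4.92 FPKM with TNF, and 1 untreated library listed it at 0. Cxcl1, a neutrophil attractant, was at 1.37, 1.52 and 1.22 FPKM untreated and 11.3, 10.5 and 9.37 FPKM with TNF. For these 3 chemokines the lowest TNF library was above the highest untreated one by more than the whole spread of either group. Nfkbie, an I kappa B protein that holds Rel dimers in the cytoplasm, was at 6.19, 4.73 and 3.43 FPKM untreated and 31.5, 21.7 and 31.5 FPKM with TNF. Tnfrsf9, the co-stimulatory receptor 4-1BB, was at 4.86, 4.34 and 3.04 FPKM untreated and 32.5, 16 and 15.5 FPKM with TNF, with 1 TNF library above the other 2. Rgs16, which speeds up the inactivation of G alpha proteins, was at 14.4, 17.8 and 15.6 FPKM untreated and 68.4, 73.3 and 67.2 FPKM with TNF. Vcam1, the adhesion molecule that binds leukocyte integrins, was at 10.6, 10.8 and 10.7 FPKM untreated and 45.1, 50.3 and 45.9 FPKM with TNF and rose by 2.04 ± 0.05 on the log2 scale.

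The largest falls included genes of channels, the cytoskeleton and axon guidance. Kcna1, a voltage-gated potassium channel of axons, was at 26.4, 26.2 and 27.8 FPKM in untreated replicates 1 to 3 and at 5.64, 5.19 and 6.0 FPKM in TNF replicates 1 to 3. The change was -2.07 ± 0.08 on the log2 scale (limma adjusted p = 1e-06), and Kcna1 was the 1 gene to fall at least 4-fold on that scale. Btc, which encodes betacellulin, a ligand of the EGF receptor, was at 8.82, 6.65 and 10.1 FPKM untreated and 1.57, 1.66 and 0.995 FPKM with TNF. Tubb3, the neuronal class of beta tubulin, was at 54.7, 53.4 and 57.9 FPKM untreated and 16.7, 16.1 and 15.6 FPKM with TNF. Each of these genes had a wide gap between its 3 TNF and its 3 untreated libraries, which by the choice of genes could not overlap. Sema4f, a membrane semaphorin, was at 19.6, 20.2 and 19.96 FPKM untreated and 5.83, 5.78 and 5.72 FPKM with TNF. Plxnb3, a plexin and thus a semaphorin receptor, was at 12.6, 12.8 and 12.2 FPKM untreated and 3.78, 3.69 and 3.53 FPKM with TNF. Both are parts of the axon guidance system.

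Atf3, a stress-responsive bZIP factor, was at 63.1, 62 and 62.7 FPKM untreated and 21.5, 19.5 and 21.2 FPKM with TNF. Fam19a5, a secreted chemokine-like protein of the nervous system, was at 24.1, 23.2 and 26.1 FPKM untreated and 7.8, 8.77 and 7.2 FPKM with TNF. Uchl1, a ubiquitin hydrolase abundant in neurons, was at 11.7, 12.5 and 13 FPKM untreated and 3.78, 3.85 and 4.09 FPKM with TNF. The TNF libraries of these genes were all below the untreated ones, a condition of their choice. Tgfbi, a matrix protein known as a TGF-beta target, was at 143, 139 and 136 FPKM untreated and 53.1, 57 and 54.3 FPKM with TNF. Hr, a corepressor of nuclear receptors, was at 5.68, 5.77 and 5.79 FPKM untreated and 1.45, 1.81 and 1.42 FPKM with TNF. Spn-ps, listed as a pseudogene of the leukocyte sialoprotein Spn, was at 5.78, 7.16 and 6.96 FPKM untreated and 1.14, 1.21 and 0.819 FPKM with TNF. Its reads could be shared with Spn, so its value is uncertain. Snhg20, a long noncoding RNA, was at 14.6, 24.4 and 15.5 FPKM untreated and 11.8, 4.82 and 3.94 FPKM with TNF, with groups close to each other and wide spread within each. It passed the test in 2 of 9 omissions, those of TNF replicate 1 and of TNF plus WBG replicate 1.

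**Figure D2:**
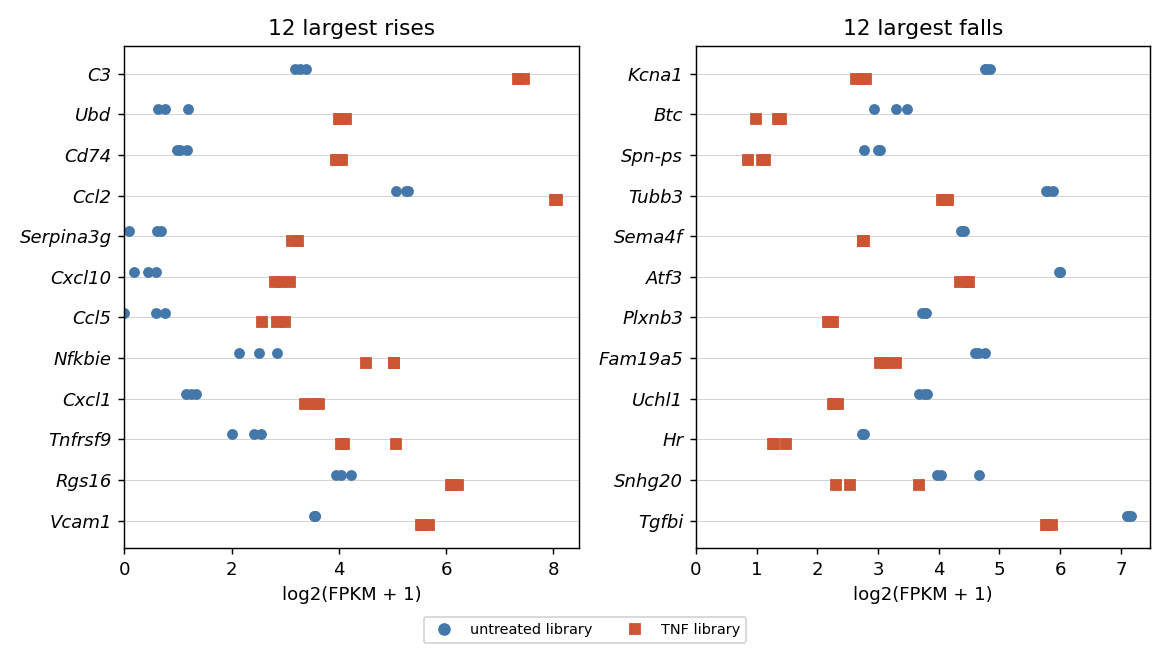
Levels on the log2(FPKM + 1) scale of the 12 largest rises (left) and the 12 largest falls (right), 1 circle per untreated and 1 square per TNF library. The groups do not overlap for any gene drawn, a condition of their choice, and Snhg20 has the smallest gap beside its spread.

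Secreted factors had the highest share of called members among the 5 broad groups: of 321 members kept, 77 rose and 42 fell (37.1% called against 10.6% of all genes). For receptors the numbers were 63 and 42 of 332 (31.6% called) and for the intracellular classes 107 and 37 of 606 (23.8%). For transporters they were 35 and 30 of 360 (18.1%). Transcription factors were near the background, with 45 rises and 37 falls among 701 members (11.7% called). The medians of log2 change were small in all 5 groups, from -0.02 for transcription factors to 0.05 for secreted factors, beside 3.4e-05 for all genes kept. For transporters the rises numbered 21 without untreated replicate 3 and the falls 19 without TNF replicate 2. A gene could be kept through the libraries of a single group, so class shares include members kept only because they were high there. The classes were chosen with earlier results of these data known, so their shares describe the response and are no independent test. Each class count below stands beside 6.43% rises and 4.21% falls over all genes kept.

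**Figure D3:**
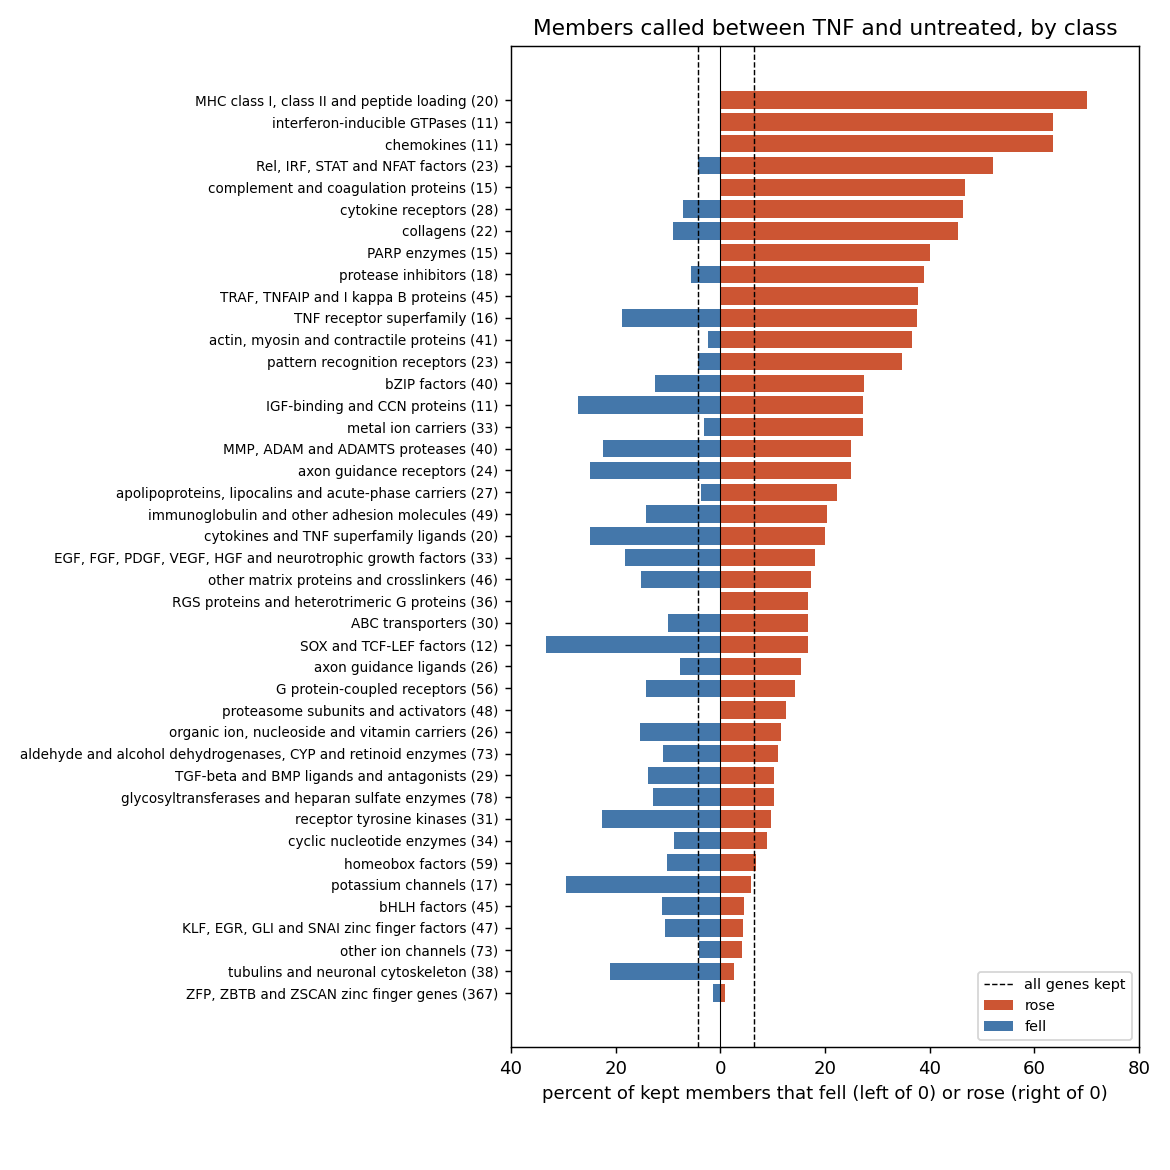
Percent of the kept members of each class that rose (right of 0) or fell (left of 0), for classes with at least 11 members kept and at least 6 called (1 such class is not drawn), with the number kept in brackets. Dashed lines mark the shares over all genes kept, 6.43% for rises and 4.21% for falls. MHC and peptide loading genes reach 70.0% rises, while SOX and TCF-LEF factors (33.3% falls) and potassium channels (29.4%) extend furthest to the left.

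Among ligands, chemokines rose and none fell: 7 of 11 kept passed the test, with a median log2 change of 0.83 over the class. These 11 were kept of 38 chemokine genes, and Cxcl10 and Ccl5 were kept through libraries with TNF alone. With a mean of at least 5 FPKM the rises numbered 3. Cytokines and TNF superfamily ligands moved both ways, with 4 rises and 5 falls among 20. Csf1, the growth factor of macrophages, rose from 21.7 ± 1.47 to 55.9 ± 4.0 FPKM (mean ± SD, n = 3). Its libraries read 20.2, 21.8 and 23.1 FPKM untreated and 54.9, 60.3 and 52.5 FPKM with TNF. Il34, the other ligand of the Csf1 receptor, rose from 16.4 ± 1.2 to 23.1 ± 0.97 FPKM, and Tnfsf12 (TWEAK) rose from 4.59 ± 0.294 to 6.75 ± 0.321 FPKM. The macrophage growth factors thus moved in the same direction, by 1.33 ± 0.06 and 0.48 ± 0.07 on the log2 scale. Cntf, the ciliary neurotrophic factor, fell from 4.65 ± 0.254 to 1.46 ± 0.0906 FPKM, a log2 change of -1.20 ± 0.09. The falls among cytokines dropped to 3 when untreated replicate 2 or 3 was omitted and to 2 when TNF replicate 2 or 3 was.

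The class of EGF, FGF, PDGF, VEGF, HGF and neurotrophic growth factors split evenly, with 6 rises and 6 falls among 33 kept. It also takes in genes outside these families, Angptl4 among them. Fgf5, a fibroblast growth factor, was at 67.9, 65.1 and 63.4 FPKM untreated and 35.1, 37.1 and 39.3 FPKM with TNF. All 3 TNF libraries of Fgf5 lay below its untreated ones, as its choice required, and the fall of Btc, in the same class, is given above. In the other direction Nrg1, a neuregulin that signals through ErbB receptors, rose from 1.14 ± 0.139 to 2.83 ± 0.105 FPKM, and Angptl4, a secreted inhibitor of lipoprotein lipase, rose from 24.2 ± 2.58 to 38.8 ± 3.89 FPKM. Ligands of the EGF family therefore appear on both sides, with Btc at -1.98 ± 0.16 and Nrg1 at 0.84 ± 0.09 on the log2 scale. In the class of TGF-beta and BMP ligands and antagonists, 3 rose and 4 fell among 29 (10.3% and 13.8%, beside 6.43% and 4.21% of all genes kept). Its falls include Tgfbi and Gpc1, which are neither ligands nor antagonists of that kind. Nog (noggin, a BMP antagonist) rose from 1.3 ± 0.0676 to 3.02 ± 0.161 FPKM, and Gpc1, a heparan sulfate proteoglycan of the cell surface, fell from 201 ± 4.31 to 117 ± 3.11 FPKM.

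Axon guidance ligands gave 4 rises and 2 falls among 26 kept, with a median log2 change of -0.09 over the class. That is 15.4% and 7.69%, beside 6.43% and 4.21% of all genes kept. Ntn1, netrin, was at 32, 29.7 and 34.3 FPKM untreated and 58.4, 52.1 and 53.9 FPKM with TNF. Efnb2, an ephrin, rose from 32 ± 0.503 to 44 ± 1.61 FPKM, and the semaphorin Sema3b rose from 18.9 ± 1.38 to 26.2 ± 1.14 FPKM. Sema3e and Sema4f fell, the former from 19.8, 18.3 and 19.9 FPKM to 10.1, 9.92 and 10.5 FPKM. Semaphorins thus stood on both sides, Sema3b at 0.45 ± 0.06 and Sema3e at -0.87 ± 0.05 on the log2 scale. Among IGF-binding and CCN proteins 3 of 11 rose and 3 fell. Igfbp7 rose from 161 ± 7.33 to 291 ± 7.45 FPKM, while Igfbp3, the main carrier of IGF in blood, fell from 7.05 ± 0.168 to 4.84 ± 0.546 FPKM. The falls in that class dropped to 1 in 5 of 9 omissions, those of all untreated replicates and of TNF replicates 1 and 2. Stc2, the hormone stanniocalcin, fell from 31.2 ± 1.26 to 12.2 ± 0.752 FPKM.

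Collagens rose more often than they fell: 10 of 22 rose and 2 fell, with a median log2 change of 0.12. Col5a3 rose most, from 2.93 ± 0.655 to 7.81 ± 0.719 FPKM, a log2 change of 1.17 ± 0.14. Col6a1 was at 169, 177 and 169.6 FPKM untreated and 262, 274 and 264 FPKM with TNF. Col1a1, the abundant fibrillar collagen, rose from 835 ± 57.7 to 1011 ± 8.97 FPKM, a small change of 0.28 ± 0.05 on the log2 scale at a very high level. Col18a1, the source of endostatin, fell from 292 ± 11 to 253 ± 3.08 FPKM, and Col27a1 fell from 32.4 ± 2.85 to 25.2 ± 1.41 FPKM. Other matrix proteins moved both ways (8 rises and 7 falls of 46). Tnc, the adhesion-modulating protein tenascin, fell from 68.3, 65.3 and 70.6 to 29.3, 29 and 29.1 FPKM, and Npnt, a ligand of an integrin, fell from 5.25 ± 1.15 to 1.77 ± 0.0951 FPKM. Podnl1, a leucine-rich proteoglycan, rose from 5.48 ± 0.549 to 9.98 ± 0.123 FPKM, and Loxl4, a lysyl oxidase that crosslinks collagen, rose from 3.11 ± 0.119 to 5.13 ± 0.213 FPKM. Postn, an adhesion protein of the matrix, fell from 242 ± 9.14 to 161 ± 4.31 FPKM.

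Of the MMP, ADAM and ADAMTS proteases, 10 of 40 rose and 9 fell, the falls being 5 without untreated replicate 1 and 4 without TNF replicate 3. Mmp9, a gelatinase, was at 0.149, 0.167 and 0.231 FPKM untreated and 3.95, 4.22 and 4.25 FPKM with TNF. Adamts1 rose from 24.6 ± 1.18 to 60.9 ± 1.87 FPKM and Adamts7, known to cleave cartilage oligomeric matrix protein, rose from 24.9 ± 2.28 to 54.9 ± 2.88 FPKM. Mmp17, a membrane-anchored protease, fell from 30.4 ± 0.353 to 19.9 ± 0.858 FPKM, and Mmp2, the other gelatinase, fell from 589 ± 2.25 to 523 ± 2.75 FPKM. The gelatinases therefore moved in opposite directions, Mmp9 at 2.12 ± 0.08 and Mmp2 at -0.17 ± 0.03 on the log2 scale. Protease inhibitors rose in 7 of 18 cases and fell in 1. Serpine2, an inhibitor of thrombin and plasminogen activators, was at 21.4, 24 and 20.1 FPKM untreated and 54.2, 67.2 and 52.4 FPKM with TNF. Slpi, an inhibitor of leukocyte elastase, rose from 4.3 ± 0.81 to 10.01 ± 1.36 FPKM, whereas Timp3, an inhibitor of metalloproteases bound to the matrix, fell from 51.6 ± 2.24 to 40.3 ± 0.584 FPKM.

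Complement and coagulation proteins rose in 7 of 15 cases, and none fell with all 9 libraries (1 fell without TNF plus WBG replicate 1). Beside C3, the complement protease C1s1 rose from 17.3 ± 2.2 to 50.04 ± 3.31 FPKM and C1s2 rose from 1.2 ± 0.225 to 3.13 ± 0.285 FPKM. Of the apolipoproteins, lipocalins and acute-phase carriers 6 of 27 rose and 1 fell. Cp, ceruloplasmin, which carries copper, was at 75.6, 72 and 75.5 FPKM untreated and 114, 136 and 137 FPKM with TNF. Lbp, the lipopolysaccharide-binding protein, rose from 12.2 ± 0.303 to 22.1 ± 1.47 FPKM, and Trf, transferrin, rose from 0.901 ± 0.0375 to 2.7 ± 0.495 FPKM. The 1 fall of that class was Pla2g7, a phospholipase that inactivates platelet-activating factor, from 5.46 ± 1.42 to 3.14 ± 0.418 FPKM, and its call was lost without TNF replicate 2 or 3.

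The receptors of TNF itself were not called. Tnfrsf1a (TNFR1) was at 36, 36.7 and 36.1 FPKM untreated and at 34.7, 56.1 and 56.8 FPKM in TNF replicates 1 to 3. TNF replicate 1 lay just below the untreated libraries and the other 2 lay above them, with a log2 change of 0.40 ± 0.16 (limma adjusted p = 0.17). Without TNF replicate 1 the change was 0.62 and Tnfrsf1a passed the test (limma adjusted p = 6.8e-05). Tnfrsf1b (TNFR2) was at 15.6, 17.4 and 16.8 FPKM untreated and 15.9, 16.5 and 15.5 FPKM with TNF, with overlapping groups. Across the TNF receptor superfamily 6 of 16 rose and 3 fell. With a mean of at least 5 FPKM the rises numbered 3. Fas, a death receptor, was at 1.25, 0.998 and 1.25 FPKM untreated and 5.49, 5.96 and 6.62 FPKM with TNF. Tnfrsf14 (HVEM) rose from 0.864 ± 0.294 to 2.31 ± 0.257 FPKM. Ngfr, the low-affinity neurotrophin receptor p75, fell from 169, 165 and 174 to 97.6, 96.7 and 96.7 FPKM, a log2 change of -0.80 ± 0.04.

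Cytokine receptors rose in 13 of 28 cases and fell in 2, with a median log2 change of 0.20. The rises numbered 7 without TNF replicate 2 or with no filter on low values, and the falls 1 without TNF replicate 2 or 3. Ifngr2, a chain of the interferon gamma receptor, was at 12.3, 10.5 and 10.6 FPKM untreated and 27.7, 27.5 and 26.9 FPKM with TNF. Il1rap, the shared accessory chain of interleukin 1 receptors, rose from 17.1 ± 0.278 to 27 ± 0.84 FPKM. Cntfr, the receptor of Cntf, fell from 4.1 ± 0.226 to 2.39 ± 0.125 FPKM. Ligand and receptor of the ciliary neurotrophic factor thus both fell, Cntf by -1.20 ± 0.09 and Cntfr by -0.59 ± 0.09 on the log2 scale. Pattern recognition receptors rose in 8 of 23 cases (5 without untreated replicate 3) and fell in 1 (2 without TNF plus WBG replicate 2). With a mean of at least 5 FPKM the rises numbered 4. Tlr2, a sensor of bacterial lipopeptides, was at 3.53, 3.6 and 2.93 FPKM untreated and 11.5, 11.7 and 10.8 FPKM with TNF. Ddx58 (RIG-I), a sensor of viral RNA, rose from 12 ± 0.543 to 22.8 ± 0.80 FPKM, and Zbp1, a sensor of Z-form nucleic acid, rose from 1.29 ± 0.0548 to 3.0 ± 0.549 FPKM. The 1 fall of that class was Mavs, the adaptor of RIG-I at mitochondria and not itself a receptor, from 13 ± 0.395 to 10.7 ± 0.321 FPKM.

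The class of receptor tyrosine kinases gave more falls than rises, 7 against 3 of 31. One of the rises was Pdgfrl, a receptor-like gene without a kinase domain. The rises numbered 1 in 6 of 9 omissions (those of untreated replicates 1 and 3, all TNF replicates and TNF plus WBG replicate 1). In those omissions Pdgfrl was the only rise left. The ephrin receptors Epha10 and Ephb3 fell from 4.27 ± 0.286 to 1.9 ± 0.0585 FPKM and from 22.5 ± 1.7 to 14.6 ± 0.396 FPKM. Gfra2, the neurturin co-receptor that this class includes, fell from 11.4 ± 0.632 to 7.32 ± 0.21 FPKM. G protein-coupled receptors gave 8 rises and 8 falls of 56. Adra2a, an adrenergic receptor, fell from 3.33, 3.08 and 2.34 to 0.216, 0.277 and 0.425 FPKM, and Adgrg1, an adhesion receptor also called GPR56, fell from 15.9 ± 1.04 to 8.07 ± 0.38 FPKM. Lpar1, a receptor of lysophosphatidic acid, fell from 28 ± 1.54 to 19.5 ± 0.258 FPKM. The rises among these receptors dropped to 5 on omission of untreated replicate 1 or 3, of TNF replicate 3 or of TNF plus WBG replicate 1, and to 4 on omission of TNF replicate 1 or 2. The falls numbered 5 without untreated replicate 2 or 3. With a mean of at least 5 FPKM the rises of G protein-coupled receptors numbered 3. Notch1, a receptor of contact signalling between cells, fell from 7.58 ± 1.23 to 3.49 ± 0.36 FPKM. In its class, TGF-beta, BMP, Wnt and Notch receptors, 1 of 34 rose and 3 fell. That is 11.8% called, near the 10.6% of all genes kept.

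Adhesion receptors of the immunoglobulin and related families gave 10 rises and 7 falls of 49. Beside Vcam1, the tetraspanin Cd82 was at 7.41, 8.3 and 14.8 FPKM untreated and 31, 26 and 42.1 FPKM with TNF. Icosl, a co-stimulatory ligand of T cells, rose from 0.933 ± 0.144 to 3.52 ± 0.472 FPKM. Cadm4, a cell adhesion molecule of glia that binds axons, fell from 60.3, 60.2 and 59.7 to 22.3, 25.3 and 22.9 FPKM, a log2 change of -1.32 ± 0.08. Tspan2, a tetraspanin of myelinating cells, fell from 12.3 ± 0.807 to 7.07 ± 0.441 FPKM. Integrins rose in 5 of 16 cases (31.2%, beside 6.43% of all genes kept) and none fell. The rises were 3 with no filter on low values and on omission of untreated replicate 1 or of TNF replicate 1 or 3. With a mean of at least 5 FPKM the rises numbered 1. Itga8, an integrin alpha chain, rose from 1.43 ± 0.188 to 5.96 ± 0.189 FPKM. Among cadherins and protocadherins 1 of 33 rose and 2 fell, which is 9.09% called and near the background. Cdh19, a cadherin known from Schwann cell precursors, fell from 84, 83.1 and 93.3 to 52.8, 54.5 and 51.3 FPKM, and Pcdh1 fell from 23 ± 0.784 to 12.7 ± 0.102 FPKM. Without TNF replicate 2 the rises of that class numbered 2.

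Axon guidance receptors gave 6 rises and 6 falls of 24 kept. Plxnd1, a semaphorin receptor, was at 14.3, 15.8 and 15.9 FPKM untreated and 30.4, 29.8 and 29.3 FPKM with TNF, while the plexin Plxnb3 fell as given above. Lingo3 fell from 8.32, 8.32 and 8.34 to 3.84, 4.09 and 3.18 FPKM. Unc5b, a netrin receptor, fell from 59.1 ± 4.52 to 47 ± 2.27 FPKM. Lrig1, which the symbol patterns also put in this class, rose from 46.6 ± 0.915 to 58 ± 2.63 FPKM. It restrains ErbB receptors, so the 6 rises are not all of guidance receptors. The rises numbered 2 without TNF replicate 2, and the falls 3 when replicate 3 of either group was omitted. Ntn1 and Unc5b, which is 1 receptor of netrins, moved in opposite directions, by 0.76 ± 0.06 and -0.32 ± 0.06 on the log2 scale.

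**Figure D4:**
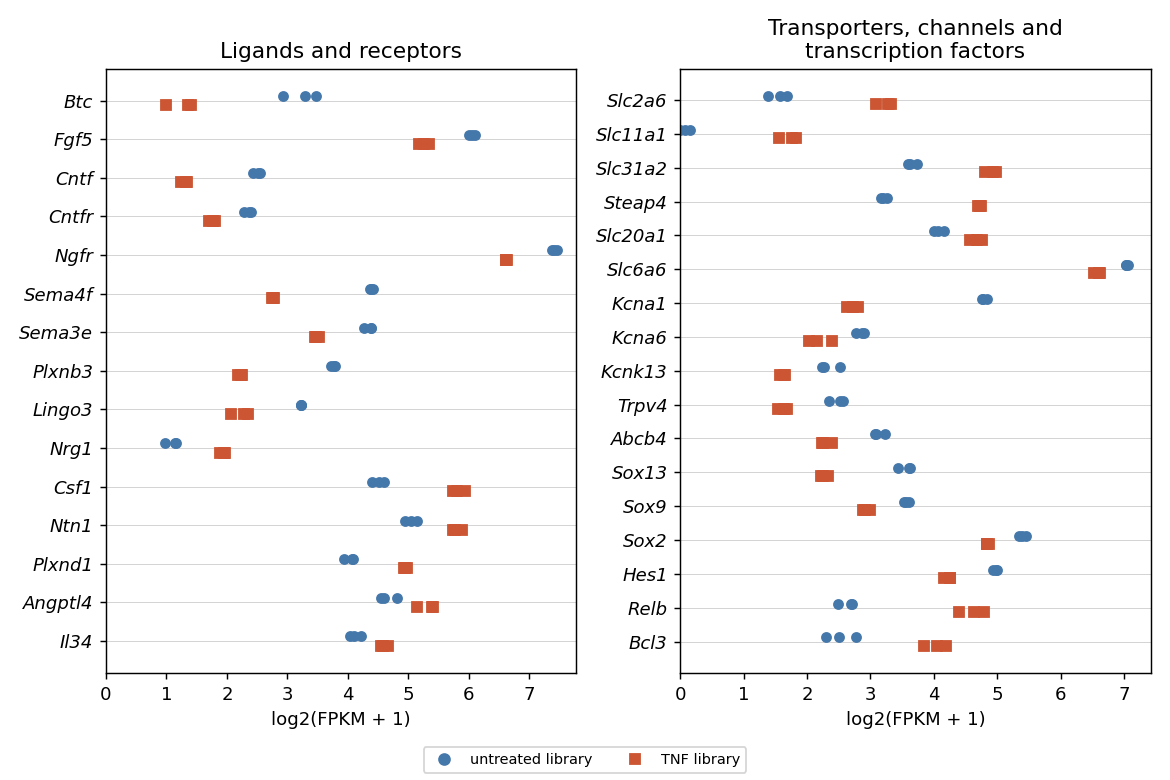
Levels on the log2(FPKM + 1) scale of ligands and receptors (left) and of transporters, channels and transcription factors (right), 1 circle per untreated and 1 square per TNF library. Btc, Ngfr and Plxnb3 lie lower with TNF, and Csf1, Ntn1, Slc2a6 and Relb lie higher. No gene drawn has overlapping groups, a condition of their choice.

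Transporters moved both ways, and metal ion carriers were the class with the most rises, 9 of 33, with 1 fall (2 without TNF replicate 1). Slc11a1 (Nramp1), a metal transporter of phagosomes, was at 0.114, 0.051 and 0 FPKM untreated and 2.54, 2.39 and 1.95 FPKM with TNF, so that it was close to 0 in all untreated libraries. Steap4, a reductase of iron and copper, was at 8.0, 8.61 and 8.2 FPKM untreated and 25.6, 25.9 and 25 FPKM with TNF. Slc31a2, a copper carrier of vesicles, was at 11.1, 11.3 and 12.3 FPKM untreated and 30.6, 29.6 and 27 FPKM with TNF. Steap4 rose by 1.52 ± 0.07 and Slc31a2 by 1.26 ± 0.06 on the log2 scale, so both were higher, as was the copper protein Cp. Of the sugar and monocarboxylate carriers 2 of 18 rose and 2 fell (1 without untreated replicate 3). That is 11.1% each way, beside 6.43% rises and 4.21% falls over all genes kept. Slc2a6 (GLUT6) was at 1.96, 2.21 and 1.6 FPKM untreated and 7.53, 9.07 and 8.69 FPKM with TNF. Slc37a1, a sugar phosphate carrier, fell from 2.34 ± 0.366 to 0.766 ± 0.287 FPKM.

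Among inorganic ion exchangers 4 of 25 rose and 1 fell. Slc20a1, a sodium-coupled phosphate carrier, rose from 15.9 ± 0.946 to 24.5 ± 1.68 FPKM, and Slc9a5, a sodium-proton exchanger, rose from 5.34 ± 0.473 to 8.4 ± 0.533 FPKM. Slc26a2, the sulfate carrier needed for cartilage proteoglycans, fell from 12.2 ± 0.507 to 8.93 ± 0.239 FPKM. Slc35b2, which brings the sulfate donor into the Golgi, fell from 56.5 ± 4.87 to 42.3 ± 2.77 FPKM, so both of these carriers of the sulfate route were lower. Of the amino acid and peptide carriers 2 of 27 rose and 2 fell, 7.41% each way and near the shares over all genes kept. The rises numbered 1 in every omission but that of untreated replicate 2. Slc43a2, a carrier of large neutral amino acids, rose from 10.01 ± 0.525 to 13.9 ± 0.547 FPKM. Slc6a6, the taurine carrier, was at 129.9, 130.03 and 133 FPKM untreated and 97.1, 91.8 and 96.5 FPKM with TNF, and the creatine carrier Slc6a8 fell from 49 ± 0.852 to 40.5 ± 0.293 FPKM. Of 30 ABC transporters 5 rose and 3 fell (16.7% and 10.0%, beside 6.43% and 4.21% of all genes kept). Tap2, which carries peptides to MHC class I, rose from 8.56 ± 0.391 to 13 ± 0.742 FPKM, and Abcb1b, a drug efflux pump, rose from 4.79 ± 0.149 to 6.91 ± 0.549 FPKM. Abcb4, which exports phosphatidylcholine, fell from 8.39, 7.39 and 7.48 to 4.25, 3.75 and 3.71 FPKM. The rises among ABC transporters were 3 after omission of untreated replicate 1, of untreated replicate 3 or of TNF replicate 2. The falls numbered 1 without untreated replicate 1 or any 1 of the TNF replicates.

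Potassium channels fell in 5 of 17 cases (29.4%) and rose in 1 (5.88%), beside 4.21% and 6.43% of all genes kept. With a mean of at least 5 FPKM the falls numbered 2 and the rises 0. The rise was Kcnj14, an inward-rectifying channel, from 1.69 ± 0.403 to 2.78 ± 0.183 FPKM, and its call was lost on omission of replicate 1 or 3 of the untreated or the TNF group. No potassium channel rose when untreated replicate 1, untreated replicate 3 or TNF replicate 1 was left out. Kcna6, of the same family as Kcna1, fell from 6.3, 5.86 and 6.45 to 3.08, 3.47 and 4.23 FPKM. Kcnk13, a background potassium channel, fell from 4.08 ± 0.545 to 2.07 ± 0.0923 FPKM. The called potassium channels were thus mostly lower, with log2 changes from -2.07 ± 0.08 for Kcna1 to -0.66 ± 0.10 for Kcna6 among those named. Other ion channels were near the background, with 3 rises and 3 falls of 73. Their rises numbered 6 without TNF plus WBG replicate 2, and their falls 5 without untreated replicate 3. Trpv4, a calcium-permeable channel that responds to swelling and stretch, fell from 4.72, 4.9 and 4.1 to 2.21, 2.1 and 1.9 FPKM. Aqp1, a water channel, fell from 4.06 ± 0.636 to 2.34 ± 0.35 FPKM.

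Among transcription factors, the Rel, IRF, STAT and NFAT families rose in 12 of 23 cases, with a median log2 change of 0.28 over the class. Their 1 fall was lost without any 1 of untreated replicates 1, 2 or 3. Relb, a subunit of the non-canonical NF-kappa B pathway, was at 5.51, 5.49 and 4.62 FPKM untreated and 20.01, 23.8 and 26.7 FPKM with TNF. Nfkb2, its partner, rose from 20.7 ± 1.44 to 48.6 ± 1.94 FPKM. Bcl3, a nuclear I kappa B protein, was at 3.94, 5.82 and 4.68 FPKM untreated and 13.4, 15.5 and 17.2 FPKM with TNF. The untreated and TNF libraries of these factors were far apart, and no overlap was a condition of their choice. The bZIP factors gave 11 rises of 40 (7 without TNF replicate 2) and 5 falls. Jun was at 102, 99 and 102 FPKM untreated and 41.3, 40.9 and 38.5 FPKM with TNF, and Fos fell from 9.18 ± 0.975 to 4.66 ± 0.557 FPKM. Junb rose from 68.8 ± 2.66 to 94.1 ± 2.11 FPKM, Jdp2, a repressor of AP-1, rose from 18.9 ± 1.09 to 28.2 ± 2.09 FPKM, and Cebpd, a factor of the acute-phase response, rose from 7.0 ± 0.283 to 11.1 ± 0.283 FPKM. AP-1 members therefore moved apart at 24 h, Jun by -1.31 ± 0.04, Fos by -0.85 ± 0.13 and Junb by 0.45 ± 0.05 on the log2 scale.

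SOX and TCF-LEF factors fell in 4 of 12 cases and rose in 2 (1 in 7 of 9 omissions, all but those of TNF plus WBG replicates 1 and 3). Sox13 was at 11.2, 9.83 and 11.4 FPKM untreated and 3.63, 4.05 and 3.78 FPKM with TNF. Sox9, a factor of cartilage and neural crest, fell from 10.8 ± 0.328 to 6.62 ± 0.293 FPKM, and Sox2, a factor of neural progenitors, fell from 41.2 ± 1.51 to 27.8 ± 0.317 FPKM. Of the bHLH factors 5 of 45 fell and 2 rose (11.1% and 4.44%, beside 4.21% and 6.43% of all genes kept). Hes1, a target of Notch, fell from 30.5, 29.4 and 30.9 to 18.1, 16.9 and 18.1 FPKM. Whether this is linked to the fall of Notch1 was not tested. Olig2, a factor of oligodendrocytes, fell from 3.17 ± 0.122 to 1.71 ± 0.199 FPKM. The rises among bHLH factors were 0 or 1 in 6 of 9 omissions (those of all untreated replicates, TNF replicates 2 and 3 and TNF plus WBG replicate 1). Runx2, the bone factor, fell from 18.8 ± 1.43 to 11.4 ± 0.664 FPKM, and Trp53, the tumour suppressor p53, rose from 89.96 ± 1.16 to 135 ± 3.69 FPKM. Zinc finger genes of the ZFP, ZBTB and ZSCAN families, the largest class, were called in 2.18% of 367 cases, 3 rises and 5 falls. Their falls numbered 2 without untreated replicate 1 and 3 without TNF replicate 2. Zfp536, known from the nervous system, fell from 15.6 ± 2.06 to 6.91 ± 0.587 FPKM.

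Inside the cell, the MHC class I, class II and peptide loading genes were the class with the highest share called: 14 of 20 rose, none fell, and the median log2 change was 0.53. H2-D1, an MHC class I heavy chain, was at 95.7, 103 and 93.5 FPKM untreated and 223, 238 and 234 FPKM with TNF. B2m, the light chain, was at 217, 210.5 and 209 FPKM untreated and 423, 447 and 430.1 FPKM with TNF. H2-Q4 rose from 12.2 ± 0.896 to 49.1 ± 0.894 FPKM. MHC class I genes are near-identical copies, so reads may be split among them and each value is uncertain. Proteasome subunits and activators, a class that also holds the ubiquitin-like Ubd, rose in 6 of 48 cases, Ubd among them, and none fell. That is 12.5%, all rises, beside 6.43% rises and 10.6% called in either direction over all genes kept. The immunoproteasome subunits Psmb10 and Psmb8 rose from 19 ± 1.0 to 33.2 ± 2.41 FPKM and from 1.72 ± 0.252 to 3.34 ± 0.60 FPKM. Interferon-inducible GTPases rose in 7 of 11 cases and none fell with all 9 libraries (1 fell without TNF replicate 3). With a mean of at least 5 FPKM the rises numbered 1. Gbp3 rose from 1.98 ± 0.529 to 5.6 ± 0.981 FPKM and Gbp2 rose from 3.25 ± 0.142 to 7.2 ± 0.365 FPKM, both also members of a family of near copies. Of 15 PARP enzymes 6 rose, although the median log2 change of the class was -0.02, with Parp14 going from 7.75 ± 0.239 to 18.5 ± 0.823 FPKM and Parp9 from 14 ± 1.56 to 26.6 ± 3.44 FPKM.

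The TRAF, TNFAIP and I kappa B proteins, which relay and restrain the TNF signal, rose in 17 of 45 cases and none fell (1 fell without untreated replicate 3), with a median log2 change of 0.14. Nfkbia, the I kappa B protein of the early feedback loop, was at 25.2, 26 and 22.8 FPKM untreated and 78.7, 81.7 and 80.4 FPKM with TNF. Tnfaip3 (A20), a ubiquitin-editing inhibitor, was at 3.79, 4.92 and 4.24 FPKM untreated and 17.1, 13.9 and 10.03 FPKM with TNF. Of 21 SOCS and other cytokine feedback proteins 1 rose and none fell with all 9 libraries (1 fell on omission of TNF replicate 1 and on that of TNF plus WBG replicate 2), which is 4.76% called and below the background, with a median log2 change of -0.03. The rise was Zc3h12a (Regnase-1), which degrades cytokine transcripts, from 5.98 ± 0.902 to 10.2 ± 0.385 FPKM. Of 36 RGS and heterotrimeric G proteins 6 rose and none fell with all 9 libraries (1 fell without TNF plus WBG replicate 3). Beside Rgs16, Rgs14 rose from 1.65 ± 0.143 to 4.32 ± 0.232 FPKM.

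Tubulins and neuronal cytoskeleton genes fell in 8 of 38 cases and 1 rose. Beside Tubb3, Tubb4a was at 12.6, 13.5 and 11.7 FPKM untreated and 5.56, 6.28 and 5.92 FPKM with TNF. Nefm, the middle neurofilament protein, fell from 6.34 ± 0.394 to 2.22 ± 0.183 FPKM. Dclk1, a microtubule-binding kinase, was the 1 rise, from 6.72 ± 0.149 to 9.98 ± 0.794 FPKM. Actin, myosin and contractile proteins went the other way, with 15 rises of 41 and 1 fall. The rises numbered 9 without untreated replicate 3 or with no filter on low values, and 8 without TNF replicate 2 or 3. Pdlim4, an adaptor of actin fibres, rose from 29.8 ± 0.125 to 55.4 ± 3.18 FPKM, while Flnc, filamin C, fell from 41.9 ± 2.41 to 32.7 ± 0.476 FPKM. Actb rose by only 0.16 ± 0.03 on the log2 scale, from 480.4 ± 15.8 to 535 ± 5.46 FPKM, and its call was lost on omission of untreated replicate 1 or of TNF replicate 2 or 3. Gapdh was not called, at 473, 461 and 349.9 FPKM untreated and 422, 478 and 421 FPKM with TNF.

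Enzymes also moved both ways. Aldehyde and alcohol dehydrogenases, cytochromes P450 and retinoid enzymes, a class that also takes in glutathione transferases, gave 8 rises and 8 falls of 73. The rises numbered 5 without untreated replicate 1, and omission of untreated replicate 2, of untreated replicate 3 or of TNF replicate 3 left 5 falls. Gsto1, a glutathione transferase, fell from 148, 141 and 147 to 109, 74.2 and 69.8 FPKM, and Mgst1, a microsomal one, rose from 17.3 ± 0.912 to 26.2 ± 3.95 FPKM. Glutathione transferases thus differed in direction, at -0.80 ± 0.14 and 0.56 ± 0.10 on the log2 scale. Cyp2j9 fell from 32.3 ± 1.1 to 17.6 ± 0.298 FPKM. Among cyclic nucleotide enzymes and their anchors 3 of 34 rose and 3 fell (8.82% each way, beside 6.43% and 4.21% of all genes kept). Akap12, an anchor of protein kinase A, was at 3.67, 3.7 and 3.85 FPKM untreated and 9.38, 10.7 and 9.97 FPKM with TNF, and Prkg1, a cGMP-dependent kinase, fell from 8.01 ± 0.406 to 4.54 ± 0.25 FPKM. Of the named called genes, Abcb1b, Adamts7, Bcl3, C1s1, Cd74, Cebpd, Cntf, Cp, Cxcl10, Dclk1, Epha10, Gbp2, Gpc1, H2-Q4, Igfbp7, Il1rap, Il34, Itga8, Jdp2, Jun, Junb, Kcna6, Lrig1, Nefm, Nfkb2, Notch1, Nrg1, Parp14, Parp9, Pla2g7, Psmb8, Rgs16, Runx2, Slc20a1, Slc37a1, Slc43a2, Slc6a6, Slpi, Snhg20, Tap2, Timp3, Tnc, Tnfsf12, Trf, Tspan2, Uchl1 and Vcam1 share exon sequence positions with another gene in GENCODE M21, and reads of such genes may be shared.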

How the data were processed

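RNA of 9 libraries labelled RAW264.7 was sequenced, and the authors deposited 1 table of FPKM values for 56289 Ensembl gene identifiers. Which aligner, annotation, build and program the authors used is not given in the sources used here. Symbols came from GENCODE M21, and 55144 identifiers matched. Genes with at least 1 FPKM in at least 3 of 9 libraries were kept (13026, of which 10 have no symbol). The log2 of FPKM plus 1 entered a linear model in limma 3.58.1 under R 4.3.3, with the trend option, the 9 libraries together and a term for group alone. The TNF minus untreated contrast was tested two-sided, and called genes have an adjusted p under 0.05 by the Benjamini-Hochberg method, over the 13026 genes. Log2 changes hold the pseudocount and understate the change of low genes. Sums of FPKM were 427781 to 436809 per library, and 12611 to 12737 genes reached 1 FPKM. Counts were not used, and depth was inferred from the steps of low values.

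The members, classes and named genes were chosen with earlier results of these data known. Classes are symbol patterns, of which a few were corrected once by symbol for wrong matches (interferon receptor chains, Apobec genes, integrin-binding proteins and G protein-coupled receptor-associated proteins). Named genes were the 12 largest rises and 12 largest falls (called, groups apart, higher mean of at least 5 FPKM, no predicted or clone names), up to 3 called genes per class and direction (higher mean of at least 2 FPKM), up to 3 per broad group and direction by level, and Tnfrsf1a, Tnfrsf1b, Gapdh and Actb. Some genes and 1 class that these rules take are not reported here. Motifs were searched on both strands of the RefSeq windows. The pipeline was tested on simulated data. Alternatives were pseudocounts of 0.1 and 5, no filter, a mean of at least 5 FPKM, median-ratio scaling, quantile normalization, only the 6 libraries compared, no trend, robust limma, a replicate block and omission of each library. Tables were handled in pandas 2.3.3 with numpy 2.4.6 (python 3.11.15) and drawn in matplotlib 3.10.9.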

Additional observations from a re-analysis of the deposited data

How the results depend on the processing

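Counts of genes that rose ran from 653 (no filter) to 841, and of genes that fell from 437 (replicate block) to 641 (quantile normalization), over the alternatives other than omissions, beside 837 and 549. Omitting 1 library gave 559 to 782 rises and 346 to 514 falls. Of 837 rises, 478 were called in the fit of 9 libraries and in every omission, and of 549 falls 266 were. Replicate numbers are shared between groups, but same-numbered libraries did not deviate together (correlations of -0.014, -0.015 and 0.014), so the numbers were not taken as pairs. The replicate block gave 722 rises and 437 falls. Of 291 named genes called, 214 were called in every omission and 259 with the block. The not called Gapdh changed sign in its log2 value, from 0.0503 to -0.0886 without untreated replicate 3 and to -0.0104 without TNF replicate 2, within a range over omissions of -0.0886 to 0.129. The filter of a mean of at least 5 FPKM tests fewer genes and so lowers the counts of classes with many low members. Depth limits the genes of lowest level most, since fewer fragments set their values.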

Other observations

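Large changes were also found among called genes that belong to none of the 64 classes. The genes in this section were chosen after their values were seen. Nkd2, an antagonist of Wnt signalling, fell from 97.3 ± 4.68 to 44.3 ± 5.29 FPKM (mean ± SD, n = 3). Ntm (neurotrimin, a neuronal adhesion protein) fell from 9.52 ± 0.71 to 3.62 ± 0.644 FPKM, Tmem158 fell from 25.2 ± 1.98 to 10.9 ± 0.535 FPKM, and Rcan2, a regulator of calcineurin, fell from 6.01 ± 0.381 to 2.2 ± 0.0837 FPKM. Among rises, Casp4 (known in the mouse as caspase 11), the sensor of intracellular lipopolysaccharide, was at 5.63, 5.16 and 6.3 FPKM in untreated replicates 1 to 3 and 21.4, 19.1 and 18.5 FPKM in TNF replicates 1 to 3. Chadl, a chondroadherin-like matrix protein, rose from 5.27 ± 0.566 to 19 ± 1.53 FPKM, and Rhbdl2, a membrane protease, rose from 2.87 ± 0.111 to 10.6 ± 1.2 FPKM. The neighbouring membrane proteins Tmem176a and Tmem176b rose from 83.3 ± 1.54 to 201 ± 6.17 FPKM and from 156 ± 9.45 to 327 ± 13.8 FPKM. The kinases Pim1, Plk2 and Cdk6 rose from 4.25 ± 0.393 to 11.6 ± 1.02 FPKM, from 20.1 ± 0.623 to 40.8 ± 1.79 FPKM and from 5.79 ± 0.447 to 11.7 ± 0.317 FPKM.

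Several genes known from neural crest and its glia were expressed in the cultured cells. They were chosen after their values were seen and not from a full marker list. Sox10, a factor of neural crest and glia, was at 94, 101 and 97.4 FPKM untreated and 82.1, 101 and 77 FPKM with TNF and was not called. Nes, an intermediate filament of progenitors, and Pax3, a factor of neural crest, were not called either. Nes was at 78, 84.5 and 77.9 FPKM untreated and 76.4, 79.9 and 79.8 FPKM with TNF, and Pax3 at 13.2, 13.4 and 13.4 FPKM untreated and 14.8, 13.3 and 13.7 FPKM with TNF. Other genes of this kind fell. S100b, a calcium-binding protein of glia, fell from 6.7 ± 0.149 to 2.71 ± 0.193 FPKM, Cnp, an enzyme of myelin, fell from 49.8 ± 0.571 to 27.6 ± 0.837 FPKM, and Erbb3, the neuregulin receptor, fell from 59.2 ± 2.87 to 48.6 ± 2.17 FPKM. These values name no cell type. Exons of Chadl, Tmem176a, Tmem176b, Pim1, Cdk6 and Cnp overlap another gene in GENCODE M21, and their reads may be shared.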
